A study of Mus musculus with 4 samples.

Results

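The integrin and laminin genes of the mouse were followed across the cell types of transplanted pancreatic tumours. They are the 37 genes, of 32285 counted, whose symbols begin with Itga, or consist of Itgb or of Lama, Lamb or Lamc and a digit. They comprise 18 integrin alpha genes, 8 integrin beta genes and 11 laminin chains. Cells of the lines KPC-4545 and KPC-3403 had been implanted orthotopically into C57BL/6J mice, and the untreated tumours were taken on day 13. KPC is the usual name of a genetic mouse model of pancreatic cancer, from which such lines are derived. Each line gave 1 enriched library, sorted as negative for CD45 (leukocytes), CD31 (endothelium), EPCAM (epithelium) and TER119 (red cells), and 1 whole library, of the unsorted suspension. Every group therefore holds 1 library per line, and since nothing in the labels ties a library to an animal, p-values reflect library-to-library spread alone, which may be technical.

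Integrins are cell surface receptors made of 1 alpha and 1 beta chain that bind the extracellular matrix or other cells and couple them to the cytoskeleton. Laminins are heterotrimers of 1 alpha, 1 beta and 1 gamma chain and form, with type IV collagen, nidogen and perlecan, the sheet-like basement membrane on which epithelia rest. Epithelial cells bind laminin chiefly through the alpha chains of Itga3 and Itga6, fibroblasts bind fibronectin and collagens through other Itgb1 and Itgav pairs, and leukocytes carry their own set built on Itgb2 and Itgb7.

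Droplets with at least 500 UMIs (unique molecular identifiers, counted mRNA molecules), 250 genes and at most 20% mitochondrial UMIs were taken as cells, 1692 and 2575 in the enriched KPC-4545 and KPC-3403 libraries and 536 and 1217 in the whole ones. Median depth was 8061 and 16069 UMIs per cell in the enriched libraries, against 3552 and 3937 in the whole libraries. Cells were gated on UMIs of marker genes, none of which is an integrin or laminin. Fibroblasts (collagen genes, Dcn, Lum and Pdgfra) numbered 82, 1472, 10 and 57, and tumour cells (keratins, Epcam, Cldn4 and Cdh1) 608, 612, 64 and 343, in the enriched KPC-4545, enriched KPC-3403, whole KPC-4545 and whole KPC-3403 libraries. Mesothelial cells (Upk3b, Upk1b, Nkain4 and others), which line the abdominal cavity, reached 20 cells in 1 library, the enriched KPC-3403 one, with 234. Immune cells numbered 13, 25, 399 and 603 in the same libraries, and 18 of the 25 in the enriched KPC-3403 library were neutrophils. UMIs were summed over each class of at least 20 cells in a library and are given as CPM, the gene's share of that sum scaled to counts per 1000000 UMIs and not corrected for length.

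Genes outside the gates were read to check the classes. Col5a1, a fibrillar collagen gene, was at 926, 434 and 787 CPM in the 3 fibroblast sums and at most 32.1 CPM in the tumour sums, and Msln, a mesothelial surface protein, at 288 CPM in mesothelial and 11.2 CPM in fibroblast-gated cells of the enriched KPC-3403 library. Tyrobp, a leukocyte signalling adaptor, was at 988 to 6003 CPM in the 3 immune sums and at most 0.872 CPM in the tumour sums. The tumour cells of the enriched libraries had little mRNA of the sorted antigen: Epcam, itself 1 of the 7 tumour gate genes, was at 2.22 and 40.2 CPM there, against 468 and 555 CPM in the whole libraries, and Cldn7, another epithelial gene, at 1.94 and 10.2 CPM in the enriched libraries, against 322 and 124 CPM in the whole ones. Wt1, a transcription factor of mesothelium and some stroma, had a UMI in 993 of the 1472 enriched KPC-3403 fibroblasts, so fibroblast values are also given for the 479 without one. In the same library the mesothelial cells also held 13629 CPM of the 6 fibroblast gate genes, against 20397 CPM in fibroblasts.

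The enriched KPC-4545 and whole KPC-3403 libraries shared 139 cell barcodes, whereas the other pairs of libraries shared 6 to 11. In 131 of them the enriched KPC-4545 barcode was a shallow one (median 785 UMIs) and its whole KPC-3403 counterpart a deep one (median 29685 UMIs). They included 18 of the 82 fibroblasts and 78 of the 608 tumour cells of that library. These barcodes were kept, and all counts of called genes given here were the same without the barcodes that another library held with at least 5 times the UMIs: 13 higher and 11 lower for fibroblasts against tumour cells, 14 and 8 for fibroblasts against immune cells, and 12 and 8 for tumour against immune cells.

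**Figure D1:**
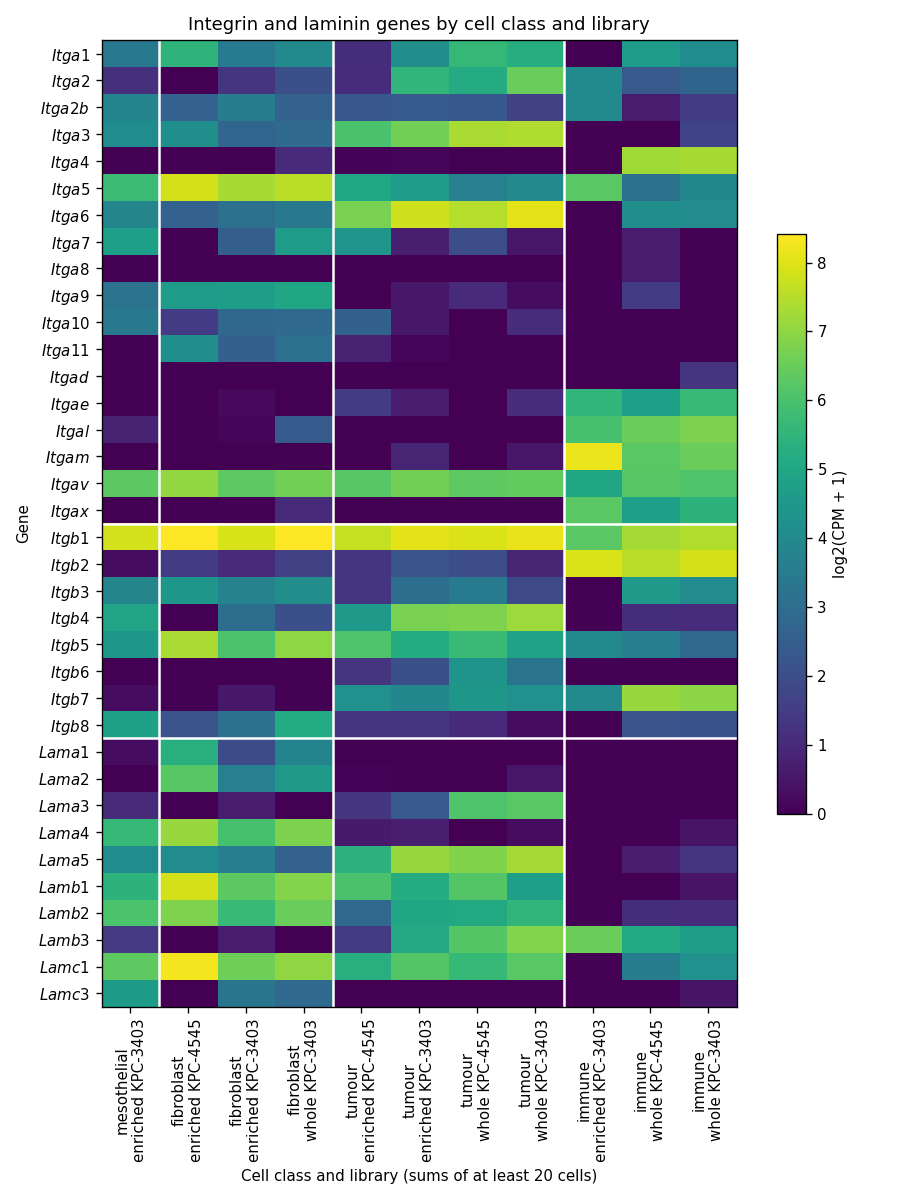
Level of the genes, as log2(CPM + 1), in each library and cell class of at least 20 cells; columns run through mesothelial, fibroblast, tumour and immune sums, and white lines separate the classes and the alpha, beta and laminin genes. Lama4, Itga5 and Itga9 stand out in the fibroblast columns, and Itga3, Itga6 and Lama5 in the tumour columns. Itgal, Itgam and Itgb2 stand out in the immune columns. Itga4 is at 0 in the mostly neutrophil immune column, a small sum of 65304 UMIs where 3 UMIs equal 45.9 CPM.

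The classes carried distinct sets, as the heat map of the genes shows. At a mean of 20 CPM or more, fibroblasts held 11 of the 37 genes, mesothelial cells 12, tumour cells 16 and immune cells 11, while 10, 13, 13 and 18 were under 1 CPM. Itga8, with 3 UMIs over all cells, and Itgad, with 4, were hardly detected anywhere and were not tested. Itgb1, the common partner of most matrix-binding alpha chains, was found in every class, at 307 ± 57.3 CPM in fibroblasts (SD, n = 3), 250.5 ± 33.0 CPM in tumour cells (n = 4) and 135 ± 51.3 CPM in immune cells (n = 3). It passed in none of the 3 class comparisons (fibroblast over tumour log2 fold change 0.33, SE 0.43, edgeR adjusted p = 0.644; over immune cells, adjusted p = 0.0928; tumour over immune cells, adjusted p = 0.149). Itgav, which pairs with Itgb1, Itgb3, Itgb5, Itgb6 or Itgb8, was likewise at 103 ± 26.1 CPM in fibroblasts, 83.9 ± 9.84 CPM in tumour cells and 57.5 ± 23.6 CPM in immune cells, and passed in none (adjusted p = 0.666, 0.385 and 0.572 by edgeR). These tests used edgeR on 11 library sums with the library as a block and 4 residual degrees of freedom, and a gene was called at an adjusted p under 0.05 over all genes tested.

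Fibroblasts differed from tumour cells in 24 of the 35 genes tested: 13 were higher, where 15.3% of all 13983 genes tested were higher, and 11 were lower, where 9.63% of all genes were. Without the enriched KPC-3403 library 10 were called higher, where 9.85% of 11589 genes were, and 7 lower, where 5.73% were. These 10 included Itgal, not called with all libraries, and lacked Itga11, Itgb8, Lamb2 and Lamc3. With all libraries, the higher ones were the stromal laminin chains Lama1, Lama2, Lama4, Lamb1, Lamb2, Lamc1 and Lamc3. The receptors Itga5, Itga9, Itga11, Itgb3, Itgb5 and Itgb8 were higher with them. The lower ones included the epithelial chains Lama3, Lama5 and Lamb3 with Itga2, Itga3, Itga6, Itgam, Itgb4, Itgb6 and Itgb7. The median log2 difference was 1.33 over the 35 genes and 0.02 over all genes. Values are given below for the 3 fibroblast sums with the enriched KPC-4545 sum first, then enriched KPC-3403 and last whole KPC-3403, and for the 4 tumour sums in the order enriched KPC-4545, enriched KPC-3403, whole KPC-4545 and whole KPC-3403.

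Among the laminin alpha chains, Lama4, the chain of vascular and stromal laminins, was at 138, 61.9 and 106 CPM in fibroblasts, against 0.513, 0.648, 0 and 0.218 CPM in tumour cells (log2 fold change 7.55, SE 0.55, edgeR adjusted p = 4.05e-09). Lama2, the chain of muscle and mesenchymal laminin, was at 75.0, 11.8 and 22.3 CPM in fibroblasts, against 0.0570, 0, 0 and 0.436 CPM in tumour cells (log2 fold change 8.19, SE 0.84, edgeR adjusted p = 6.47e-07). The groups did not overlap for either gene, and both calls held in all 15 alternative settings. Genes of this contrast were described because they were called, and the share of all genes tested without overlap was not counted, here or below. Lama1, a chain typical of embryonic basement membranes, had 102 UMIs in the fibroblast sums (38.4, 2.78 and 12.8 CPM) and none in the tumour sums, at least 44.5-fold higher against a floor of 3 UMIs over the tumour sums. Lamc3, a gamma chain, likewise had 220 UMIs in fibroblasts (0, 8.76 and 6.38 CPM) and none in tumour cells, at least 96.0-fold higher, although DESeq2 did not call it (adjusted p = 0.203). Neither had a UMI in a gated tumour cell, and the enriched KPC-4545 fibroblasts held most Lama1 CPM but no Lamc3.

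The partner chains of Lama2 and Lama4 were present in both cell types and differed less. Lamb1 was at 234, 77.9 and 115 CPM in fibroblasts, against 63.7, 36.1, 71.1 and 25.9 CPM in tumour cells (log2 fold change 1.67, SE 0.42, edgeR adjusted p = 0.0043). Lamc1, the gamma chain of most laminins, was at 305, 94.0 and 129.8 CPM in fibroblasts, against 39.0, 70.4, 49.4 and 75.2 CPM in tumour cells (log2 fold change 1.35, SE 0.48, edgeR adjusted p = 0.043). Lamb2, a beta chain of mature basement membranes, was at 109.8, 50.7 and 88.3 CPM in fibroblasts, against 6.38, 30.1, 33.6 and 44.3 CPM in tumour cells (log2 fold change 1.86, SE 0.51, edgeR adjusted p = 0.00995). Groups did not overlap for these 3 genes, but their calls rested on single libraries. Without the whole KPC-3403 library the edgeR adjusted p of Lamb1 was 0.17. That of Lamc1 was 0.137, 0.076 and 0.104 without the enriched KPC-4545, whole KPC-4545 and whole KPC-3403 libraries, and that of Lamb2 was 0.0694 without the enriched KPC-3403 library. All 3 kept their direction, with log2 differences of 1.47 for Lamb1, 0.74 to 1.73 for Lamc1 and 2.55 for Lamb2.

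The receptor chains called higher in fibroblasts included chains known to bind fibronectin, tenascin, vitronectin and collagen. Itga5, the alpha chain of the classical fibronectin receptor, was at 234, 158 and 187 CPM in fibroblasts, against 31.8, 23.4, 11.8 and 14.6 CPM in tumour cells (log2 fold change 3.05, SE 0.45, edgeR adjusted p = 1.57e-05). Itga9, which binds tenascin and other matrix proteins, was at 24.4, 24.9 and 30.8 CPM in fibroblasts, against 0, 0.463, 0.987 and 0.218 CPM in tumour cells (log2 fold change 7.11, SE 0.68, edgeR adjusted p = 5.69e-08). Both sets of values were well apart, and both calls held in all 15 alternative settings. Itgb5, a partner of Itgav in the vitronectin receptor, was at 162, 65.2 and 127 CPM in fibroblasts, against 67.1, 36.2, 52.3 and 27.9 CPM in tumour cells (log2 fold change 1.45, SE 0.39, edgeR adjusted p = 0.00762), with overlapping values. Within each of the 3 libraries that held both sums it was higher in fibroblasts; without the whole KPC-3403 library the adjusted p was 0.424 and the log2 difference 1.01. Itgb3, the other main partner of Itgav, was at 20.9, 12.7 and 17.0 CPM in fibroblasts, against 1.42, 7.31, 9.87 and 2.62 CPM in tumour cells (log2 fold change 2.16, SE 0.53, edgeR adjusted p = 0.00446), and its adjusted p was 0.0567 without the library block. Itga11, a collagen receptor chain of fibroblasts, at 17.4, 5.12 and 7.45 CPM in fibroblasts and 0.798, 0.0925, 0 and 0 CPM in tumour cells, and Itgb8, a partner of Itgav in the activation of latent TGF-beta, at 3.49, 8.06 and 35.1 CPM in fibroblasts and 1.42, 1.39, 0.987 and 0.218 CPM in tumour cells, were called as well. The adjusted p of Itga11 was 0.0563 without the enriched KPC-3403 library and 0.0691 in DESeq2, and that of Itgb8 was 0.075 without the whole KPC-3403 library.

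**Figure D2:**
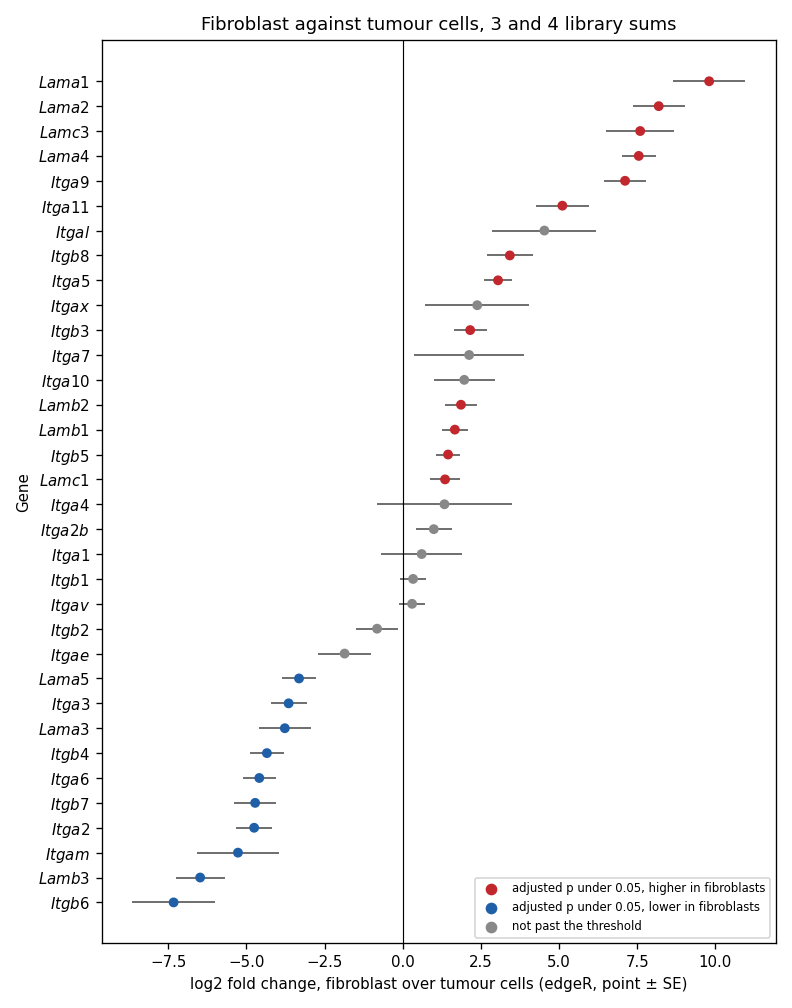
The log2 fold change of fibroblasts over tumour cells with its standard error for the genes tested, from 3 fibroblast and 4 tumour library sums (edgeR), coloured by whether the adjusted p was under 0.05. The 13 genes called higher run from Lamc1 at 1.35 to Lama1 at 9.80, those drawn as lower from Lama5 at -3.32 to Itgb6 at -7.33, and Itgb1 and Itgav lie near 0.

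On the tumour side stood the integrin chains of the hemidesmosome, the junction by which epithelia grip the basement membrane. Itga6, its laminin-binding alpha chain, was at 5.23, 7.57 and 9.57 CPM in fibroblasts, against 104, 225, 179.7 and 271 CPM in tumour cells (log2 fold change -4.59, SE 0.52, edgeR adjusted p = 5.68e-07). Itgb4, its sole partner in that junction, was at 0, 7.33 and 3.19 CPM in fibroblasts, against 22.7, 105, 109.6 and 145 CPM in tumour cells (log2 fold change -4.35, SE 0.54, edgeR adjusted p = 1.67e-06). Itga3, the other epithelial laminin receptor, was at 17.4, 5.69 and 6.38 CPM in fibroblasts, against 62.6, 98.1, 164 and 169 CPM in tumour cells (log2 fold change -3.65, SE 0.57, edgeR adjusted p = 5.56e-05). The values did not overlap for these 3 genes; without the enriched KPC-3403 library the adjusted p of Itga3 was 0.0632. Itga2, an alpha chain that binds collagen and laminin, was at 0, 1.47 and 3.19 CPM in fibroblasts, against 1.08, 45.3, 35.5 and 90.3 CPM in tumour cells (log2 fold change -4.75, SE 0.57, edgeR adjusted p = 1.22e-06). Its enriched KPC-4545 tumour value lay within the fibroblast range. Itgb7, best known from lymphocytes, was at 0, 0.450 and 0 CPM in fibroblasts, against 18.1, 13.9, 20.7 and 18.3 CPM in tumour cells (log2 fold change -4.72, SE 0.67, edgeR adjusted p = 1.07e-05). Itgb6, an epithelial partner of Itgav, had no UMI in fibroblasts and 118 in tumour cells (1.42, 3.15, 19.7 and 8.50 CPM), at least 30.1-fold lower in fibroblasts. Its adjusted p was 0.136 without the enriched KPC-3403 library and 0.372 in DESeq2. Itgam, with no UMI in fibroblasts and 11 in all tumour sums, was called lower at a level near 0 in both. It was not called in DESeq2, without the enriched KPC-3403 library or without the library block (adjusted p = 0.947, 0.64 and 0.166).

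Laminin chains known from epithelial basement membranes were lower in fibroblasts as well. Lama5, the most widespread epithelial alpha chain, was at 15.7, 11.0 and 5.32 CPM in fibroblasts, against 41.3, 139, 112 and 155 CPM in tumour cells (log2 fold change -3.32, SE 0.53, edgeR adjusted p = 4.87e-05). Lama3 and Lamb3 are chains of the laminin that anchors hemidesmosomes. Lama3 was at 0, 0.614 and 0 CPM in fibroblasts, against 1.54, 4.07, 68.1 and 75.7 CPM in tumour cells (log2 fold change -3.77, SE 0.82, edgeR adjusted p = 0.00519). Lamb3 was at 0, 0.573 and 0 CPM in fibroblasts, against 1.71, 32.6, 72.1 and 116 CPM in tumour cells (log2 fold change -6.48, SE 0.78, edgeR adjusted p = 1.95e-06). Fibroblast values lay below all tumour values for these 3 genes, and the whole libraries held the highest tumour values. The adjusted p of Lama3 was 0.0628 without the whole KPC-3403 library and 0.0554 without the library block. Lamb3 and Lama5 kept their calls in all 15 settings.

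Promoter sequences are given for Lama5 and Itga3, which were lower, and for Itga5 and Itga9, which were higher in fibroblasts than in tumour cells. RefSeq promoters (build GRCm38.p6, 250 bases before to 50 after a start) were found for 23 of the 37 genes, 26 starts in all. The GC box GGGCGG, bound by Sp factors, lay on either strand in 12 of the 26 and in 35.7% of all 32851 promoters of the same length, and the AP-1 motif TGANTCA in 3 (Itga3, Itga9 and Itgax) and in 7.81% of all. Neither motif can overlap the other. Capitals mark these matches in the following sequences, written 5′ to 3′ on the gene's strand.
Lama5, chr2:180225810-180226109, minus strand: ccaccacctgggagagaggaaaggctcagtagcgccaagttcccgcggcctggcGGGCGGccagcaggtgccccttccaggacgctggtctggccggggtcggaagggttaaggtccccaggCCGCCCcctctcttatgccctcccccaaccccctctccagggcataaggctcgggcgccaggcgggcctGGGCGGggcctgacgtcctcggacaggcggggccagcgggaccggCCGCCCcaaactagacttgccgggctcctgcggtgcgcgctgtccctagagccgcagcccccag
Itga3, start near the gene's 5′ end, chr11:95076665-95076964, minus strand: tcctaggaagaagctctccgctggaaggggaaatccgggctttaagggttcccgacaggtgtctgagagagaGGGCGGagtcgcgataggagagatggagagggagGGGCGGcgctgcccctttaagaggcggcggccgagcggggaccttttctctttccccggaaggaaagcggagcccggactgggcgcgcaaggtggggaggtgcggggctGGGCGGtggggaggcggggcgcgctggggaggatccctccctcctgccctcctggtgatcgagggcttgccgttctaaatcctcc
Itga3, internal start with the AP-1 motif, chr11:95069149-95069448, minus strand: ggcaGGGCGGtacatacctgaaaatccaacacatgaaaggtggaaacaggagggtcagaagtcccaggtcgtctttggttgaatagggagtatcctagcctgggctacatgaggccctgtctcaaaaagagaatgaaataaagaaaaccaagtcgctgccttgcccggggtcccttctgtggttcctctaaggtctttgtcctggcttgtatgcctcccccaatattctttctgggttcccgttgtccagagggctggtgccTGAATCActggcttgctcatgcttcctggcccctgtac
Itga5, chr15:103366742-103367041, minus strand: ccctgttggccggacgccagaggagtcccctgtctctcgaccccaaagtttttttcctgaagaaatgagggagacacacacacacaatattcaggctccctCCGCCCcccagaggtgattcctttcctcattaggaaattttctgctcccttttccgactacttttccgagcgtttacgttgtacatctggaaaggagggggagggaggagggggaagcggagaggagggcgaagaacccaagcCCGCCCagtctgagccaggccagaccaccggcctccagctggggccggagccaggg
Itga9, internal start, chr9:118711442-118711741, plus strand: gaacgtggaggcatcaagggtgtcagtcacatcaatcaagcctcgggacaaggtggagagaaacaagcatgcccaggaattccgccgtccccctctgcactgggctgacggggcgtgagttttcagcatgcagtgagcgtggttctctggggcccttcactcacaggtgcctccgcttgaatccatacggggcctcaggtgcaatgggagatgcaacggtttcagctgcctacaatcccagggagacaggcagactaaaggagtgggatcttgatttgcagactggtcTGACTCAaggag
The Itga9 start lies 105002 bases inside the gene as GENCODE gives it, and the internal Itga3 start 7603 bases inside. Lama5 holds 4 GC boxes, the 5′ start of Itga3 holds 3 and Itga5 holds 2. The AP-1 motif stood once each at the internal starts of Itga3 and Itga9. Both motifs were thus found on both sides of the contrast. The matches describe letters and not bound sites.

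The wider pathway was read from lists of partner genes, to be set against the 15.3% of all genes that were higher and the 9.63% that were lower. Of 10 laminin partners and basement membrane genes, 7 were higher and 1 lower in fibroblasts than in tumour cells, with a median log2 difference of 2.88 against 0.02 over all genes. Sparc, a collagen-binding matricellular protein, was at 9134 ± 1187 CPM in fibroblasts and 268 ± 374 CPM in tumour cells (SD, n = 3 and 4), Col4a1, a type IV collagen chain, at 454 ± 320 CPM in fibroblasts and 59.5 ± 20.9 CPM in tumour cells, and Hspg2, which encodes perlecan, at 289 ± 66.3 CPM in fibroblasts and 40.6 ± 10.0 CPM in tumour cells. Col18a1 was the member that was lower. Of 13 other integrin ligands tested, 8 were higher and 2 lower: Fn1, which encodes fibronectin, the ligand of the Itga5 receptor, was at 2297 ± 464 CPM in fibroblasts and 445 ± 289 CPM in tumour cells, and Spp1, osteopontin, at 1285 ± 512 CPM in fibroblasts and 4666 ± 2530 CPM in tumour cells. Of 18 integrin adaptors, which join the cytoplasmic tails to actin, 4 were higher and 2 lower; the kindlin genes split, with Fermt2 at 167 ± 42.6 CPM in fibroblasts and 30.8 ± 17.3 CPM in tumour cells, and Fermt1 at 0.0409 ± 0.0709 CPM in fibroblasts and 147 ± 98.3 CPM in tumour cells. Among 8 hemidesmosome and non-integrin laminin receptor genes tested of 9, Sdc1, a syndecan, was the only one called, lower at 77.7 ± 28.6 CPM in fibroblasts and 232 ± 99.6 CPM in tumour cells. The hemidesmosome genes Plec, Dst and Cd151 were not called.

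Fibroblasts were not uniform. In the enriched KPC-3403 library, fibroblast-gated cells with a Wt1 UMI were compared with those without one; these are values of 1 library with counting intervals only, and the cells with Wt1 were deeper, at a mean of 18927 against 11778 UMIs per cell. Of 11 genes at 20 CPM or more in either group, 6 were at least 2-fold lower in cells with Wt1, against 6.65% of all 5551 genes at that level, and none was 2-fold higher, against 4.74%. Lama2 was at 3.46 CPM in cells with Wt1, against 39.7 CPM without (0.0871-fold, exact 95% counting interval 0.0650 to 0.115). Lamc1 was at 71.2 CPM with Wt1, against 169.8 CPM without (0.419-fold, exact 95% counting interval 0.386 to 0.456), and Lamb1, Lama4, Itgb3 and Itgb5 had ratios of 0.447, 0.476, 0.298 and 0.393. These 6 chains and receptors of the stromal set were thus lower together in the Wt1 cells. Itga5 was at 167 CPM with Wt1, against 127 CPM without, and Itga9 at 25.6 CPM with Wt1, against 22.5 CPM without. Lamc3, under 20 CPM in both groups, was higher with Wt1, at 9.79 CPM against 5.32 CPM without. Lama1 and Itga11, also under 20 CPM, were at 2.29 and 2.50 CPM with Wt1, against 4.43 and 13.8 CPM without. In other libraries, on 17 UMIs or fewer a side, Lama1 went the other way. It was at 56.4 CPM with Wt1 against 18.4 CPM without in enriched KPC-4545, and 13.9 against 9.15 CPM in whole KPC-3403. Itga11 was at 19.9 CPM with Wt1 against 14.7 CPM without in enriched KPC-4545, and 6.93 against 9.15 CPM in whole KPC-3403. With fibroblasts without a Wt1 UMI in place of all fibroblasts, the genes named above for the contrast with tumour cells kept their calls, except Itgam (adjusted p = 0.0943).

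Mesothelial cells could be compared with fibroblasts in the enriched KPC-3403 library alone, with no test. Of 13 genes at 20 CPM or more in either class, 4 were at least 2-fold higher in mesothelial cells, against 3.42% of 5586 genes, and 3 at least 2-fold lower, against 3.76%. Itga7, a laminin receptor chain best known from muscle, was at 26.2 CPM in mesothelial cells, against 4.87 CPM in fibroblasts (5.39-fold, exact 95% counting interval 4.17 to 6.97). Itgb4 was at 29.3 CPM in mesothelial cells, against 7.33 CPM in fibroblasts (3.99-fold, exact 95% counting interval 3.19 to 5.00), Itgb8 at 27.2 CPM in mesothelial cells, against 8.06 CPM in fibroblasts (3.38-fold, exact 95% counting interval 2.69 to 4.23) and Lamc3 at 23.2 CPM in mesothelial cells, against 8.76 CPM in fibroblasts (2.65-fold, exact 95% counting interval 2.09 to 3.34). Both chains of the hemidesmosomal integrin were below the tumour level of the same library, Itgb4 at 29.3 CPM in mesothelial cells, against 105 CPM in tumour cells, and Itga6 at 13.3 CPM in mesothelial cells, against 225 CPM in tumour cells. Itga5 was at 53.5 CPM in mesothelial cells, against 158 CPM in fibroblasts, Itgb5 at 21.2 CPM in mesothelial cells, against 65.2 CPM in fibroblasts and Itga9 at 8.27 CPM in mesothelial cells, against 24.9 CPM in fibroblasts, ratios of 0.340, 0.325 and 0.332. Set against the fibroblasts without Wt1, the same 4 genes were 2-fold higher, against 8.6% of 5826 genes, and 8 of 15 were 2-fold lower, against 8.29%: Lama2, Lama4, Lamb1, Lamc1, Itga5, Itga9, Itgb3 and Itgb5. Lama2 had no UMI in the 4955506 UMIs of mesothelial cells, against 39.7 CPM in fibroblasts without Wt1. The other libraries, with 2 to 6 mesothelial cells each, are not used.

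**Figure D3:**
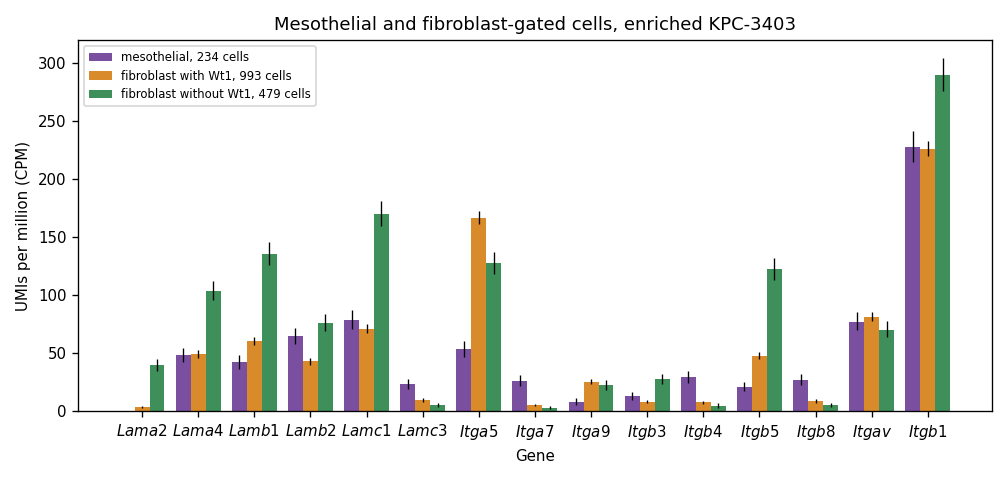
CPM of 15 of the genes in mesothelial cells, fibroblasts with a Wt1 UMI and fibroblasts without one, all of the enriched KPC-3403 library; bars are CPM of the summed UMIs and lines exact 95% Poisson intervals, which cover counting error only. Mesothelial bars stand above both fibroblast bars for Lamc3, Itga7, Itgb4 and Itgb8, and Lama2 and Itgb5 are highest in fibroblasts without Wt1.

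Tumour cells of KPC-4545 and KPC-3403 were compared with the preparation as a term, which left 1 residual degree of freedom. None of the 23 genes tested passed in edgeR, where 0.117% of all 12017 genes were higher and 0.133% lower, although 7 of the 23 had an unadjusted p under 0.05, and DESeq2 called 1 higher, where 1.15% of all genes were, and 2 lower, where 2.07% were. Of the 5 with the smallest p, 4 are given as values. Itga7 was at 19.8 and 2.96 CPM in the enriched and whole KPC-4545 tumour cells, against 0.648 and 0.436 CPM in KPC-3403 (log2 fold change 4.28, SE 0.77, edgeR adjusted p = 0.15). Itga6 was at 104 and 179.7 CPM in KPC-4545, against 225 and 271 CPM in KPC-3403 (log2 fold change -0.90, adjusted p = 0.228). Lamb1 was at 63.7 and 71.1 CPM in KPC-4545, against 36.1 and 25.9 CPM in KPC-3403, and Itgb5 at 67.1 and 52.3 CPM in KPC-4545, against 36.2 and 27.9 CPM in KPC-3403. The lines did not overlap for these 4 genes, which were picked for a small p. With 2 sums on each side, how many of all genes tested did not overlap was not counted. Without the whole KPC-4545 library the preparation term was dropped. The KPC-4545 sum left was the enriched one, set against an enriched and a whole KPC-3403 sum, so line and preparation were mixed. The spread then came from the 2 KPC-3403 sums alone, and the remaining KPC-4545 sum was assumed to vary like them. In that fit 1 of the genes was called higher in KPC-4545, where 5.67% of 12973 genes were, and 6 lower, where 7.76% were, among them Itga7 (edgeR adjusted p = 0.00604) and Itga6 (0.0463). Icam1, which binds the leukocyte Itgb2 integrins, was the 1 gene of the list of other integrin ligands called between the lines, lower at 7.34 ± 0.789 CPM in KPC-4545 and 131 ± 3.43 CPM in KPC-3403 (SD, n = 2 each; edgeR adjusted p = 0.0222). Sparc was the 1 gene called of the basement membrane list, higher at 476 ± 493 CPM in KPC-4545 and 60.2 ± 58.9 CPM in KPC-3403 (SD, n = 2 each; edgeR adjusted p = 0.0402).

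The sort was compared in tumour cells with the line as a term. Neither any of the 23 genes nor any of the 12017 genes tested passed (0% of all genes higher and 0% lower; 982 genes and 6 of the 23 had an unadjusted p under 0.05), and DESeq2 called 5 of the 23 lower, where 1.56% of all genes were. The 5 with the smallest p included Lama3, Itga3, Itgb6 and Itga5. Lama3 was at 1.54 and 4.07 CPM in the enriched KPC-4545 and KPC-3403 tumour cells, against 68.1 and 75.7 CPM in the whole ones (log2 fold change -4.80, SE 0.46, edgeR adjusted p = 0.157). Itga3 was at 62.6 and 98.1 CPM in enriched cells, against 164 and 169 CPM in whole ones, Itgb6 at 1.42 and 3.15 CPM in enriched cells, against 19.7 and 8.50 CPM in whole ones, and Itga5, which was higher in enriched cells, at 31.8 and 23.4 CPM in enriched cells, against 11.8 and 14.6 CPM in whole ones. Enriched and whole values did not overlap for these 4 genes, which were likewise picked for a small p. The share of all genes tested without overlap was not counted here either. Free RNA, read from barcodes with up to 100 UMIs, held Itga5 at 49.99 and 46.6 CPM in the enriched KPC-4545 and KPC-3403 libraries, against 27.2 and 25.4 CPM in the whole ones. These values lay above the tumour values and were likewise higher in the enriched libraries. It held Lama3 at 2.63 and 1.99 CPM in the enriched libraries, against 13.6 and 27.8 CPM in the whole ones, and its part in these differences was not tested. With an enriched library left out the line term was dropped. The enriched sum left was of 1 line and the whole sums of both, so line and preparation were mixed there too. The spread then came from the 2 whole sums alone, which are of different lines, and the remaining enriched sum was assumed to vary like them. Without the enriched KPC-3403 library 10 of the genes were called lower, where 7.79% of 11940 genes were, and 1 higher, where 3.38% were, Lama3 (edgeR adjusted p = 5.15e-08) included. Without the enriched KPC-4545 library 1 was called lower, where 0.442% of 11762 genes were, Lama3 (edgeR adjusted p = 2.03e-05).

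Within KPC-4545, 9 of 17 genes at 20 CPM or more were at least 2-fold lower in enriched than in whole tumour cells, against 12.9% of 6202 genes, and 1, Itga5, was 2-fold higher, against 12.5%. Within KPC-3403, 4 of 16 were 2-fold lower, against 4.57% of 5734 genes, and none was 2-fold higher, against 2.34%. Lama3, Lamb3 and Itga1, a collagen receptor chain, were lower in both lines, and Lama5, Lamb2, Itga2, Itga3 and Itgb4 passed the fold in KPC-4545 alone. Lamb3 was at 1.71 CPM in enriched KPC-4545 cells, against 72.1 CPM in whole ones (0.0237-fold, exact 95% counting interval 0.0150 to 0.0368), and at 32.6 CPM in enriched cells, against 116 CPM in whole ones in KPC-3403 (0.282-fold, exact 95% counting interval 0.246 to 0.323). Itgb4 was at 22.7 CPM in enriched cells, against 109.6 CPM in whole ones in KPC-4545 and 105 CPM in enriched cells, against 145 CPM in whole ones in KPC-3403, ratios of 0.208 and 0.727. Itgb1, Itgav, Lamb1 and Lamc1 had ratios between 0.790 and 1.39 in both lines. Whether the lines differed in the size of these ratios was not tested. Vim, a mesenchymal filament gene, moved with the preparation, at 6917 and 6201 CPM in the enriched KPC-4545 and KPC-3403 tumour cells and 2894 and 2588 CPM in the whole ones, as did Epcam and Cldn7 above, and their part in these differences was not tested.

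In the enriched KPC-4545 library 979 of 1692 cells passed no gate. Against the gated tumour cells of that library, 4 of 12 genes at 20 CPM were at least 2-fold higher in the ungated cells, against 17.6% of 6411 genes, and none was 2-fold lower, against 3.88%. Against its fibroblasts, 5 of 19 were higher, against 16.7% of 7205 genes, and 10 lower, against 14.8%. Itga5 was at 79.5 CPM in the ungated cells, against 31.8 CPM in tumour cells and 234 CPM in fibroblasts, and Itga6 at 62.9 CPM, against 104 CPM in tumour cells and 5.23 CPM in fibroblasts; the ungated cells lay between the gated classes for both.

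**Figure D4:**
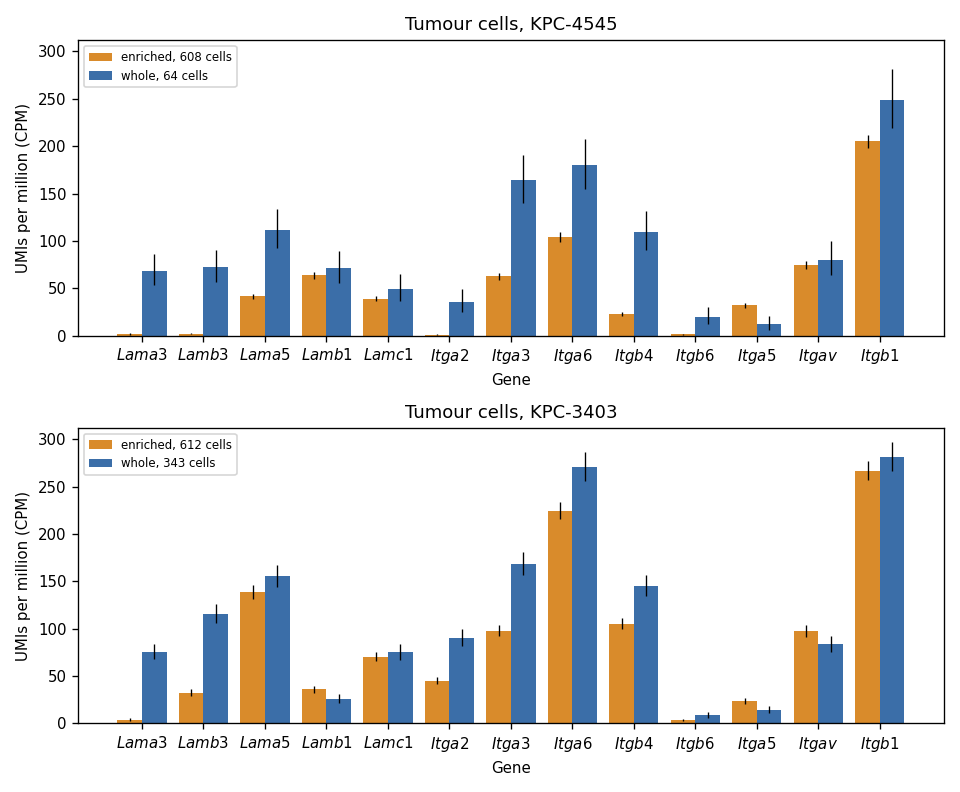
CPM of laminin and integrin genes in tumour cells of the enriched and whole libraries of each line, as bars with exact 95% Poisson intervals, which cover counting error only. Bars of Lama3, Lamb3 and Itga3 are lower in the enriched cells of both lines, and those of Itgav and Itgb1 are close.

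The same genes separated tumour cells by Epcam inside a library. In the whole KPC-3403 library Lama3 was at 90.8 CPM in the 225 tumour cells with an Epcam UMI, against 10.4 CPM in the 118 without (8.71-fold, exact 95% counting interval 4.53 to 19.2). Itga5 ran the other way, at 12.1 CPM with Epcam, against 25.5 CPM without (0.474-fold, exact 95% counting interval 0.279 to 0.830). In the whole KPC-4545 library, with 25 cells against 39, Lama3 was at 138 CPM with Epcam, against 3.79 CPM without and Lamb3 at 146 CPM with Epcam, against 3.79 CPM without. In all, 12 of 17 genes were 2-fold higher with Epcam in whole KPC-4545, against 25.8% of 6507 genes, and none was lower, against 10.5%. In whole KPC-3403, 4 of 17 were higher, against 7.55% of 5878 genes, and Itga5 was lower, against 3.56%; in the enriched KPC-3403 library 1 of 15, Itgb7, was higher, against 1.65% of 5530 genes, and none was lower, against 0.579%. Cells with an Epcam UMI were deeper than those without, at a mean of 16548 against 7318 UMIs in the whole KPC-3403 library and 19432 against 13518 UMIs in the whole KPC-4545 library.

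Immune cells held the leukocyte integrins and little laminin apart from Lamb3 and Lamc1. Against fibroblasts, 8 of 35 genes were lower in fibroblasts, against 9.98% of 13983 genes, and 14 higher, against 14.7%; against tumour cells, 8 were lower in tumour cells, against 14.8%, and 12 higher, against 16.7%. The median of all genes stood at 0.17 and 0.21 log2 in these comparisons with TMM scaling and at 0.28 and 0.29 with RLE scaling, while the median over the 35 genes was 2.37 and 0.90. Lower in both were Itga4, Itgae, Itgal, Itgam, Itgax, Itgb2 and Itgb7, joined by Lamb3 in fibroblasts and by Itgb3 in tumour cells. The adjusted p of Itgb3 was 0.101 and 0.637 without the whole library of KPC-4545 and of KPC-3403, 0.0595 with RLE scaling and 0.166 in DESeq2. Itgb2, the common beta chain of the leukocyte integrins, was at 1.74, 1.02 and 2.13 CPM in fibroblasts and 1.48, 3.52, 2.96 and 0.872 CPM in tumour cells, against 245, 184 and 235 CPM in immune cells of the enriched KPC-3403, whole KPC-4545 and whole KPC-3403 libraries (fibroblast over immune cells, log2 fold change -7.42, SE 0.71, edgeR adjusted p = 1.59e-07). Itgal, the alpha chain of LFA-1, had no UMI in tumour cells and 452 in immune cells (61.3, 91.5 and 108 CPM). With UMIs pooled over libraries it was at least 1141-fold lower in tumour cells. Most of those tumour UMIs were from enriched libraries, and most immune UMIs from whole ones. Itga4, which binds Vcam1 and fibronectin, was at 0, 149.7 and 159.5 CPM in immune cells. It had 1 UMI in all fibroblasts and 2 in all tumour cells. The 0 was the mostly neutrophil sum of 65304 UMIs, where 3 UMIs equal 45.9 CPM. Neutrophils of whole KPC-3403 held Itga4 at 30.2 CPM, so the 0 does not show absence. DESeq2 did not call Itgam and Itga4 in either comparison (adjusted p = 0.109 and 0.18 against fibroblasts, 0.0758 and 0.0503 against tumour cells). The immune markers were at 0 to 34.0 CPM in sum in the fibroblast sums and 5388 to 8407 CPM in the immune sums.

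Higher in fibroblasts than in immune cells were, among others, Itga3, Itga5, Itga9, Itga11, Itgb5 and the laminin chains Lama1, Lama2, Lama4, Lama5, Lamb1, Lamb2, Lamc1 and Lamc3. Lamb1 was at 234, 77.9 and 115 CPM in fibroblasts, against 0, 0 and 0.370 CPM in immune cells (log2 fold change 9.07, SE 0.88, edgeR adjusted p = 2.01e-07). Lama2 had no UMI in immune cells, at least 20.3-fold higher in fibroblasts, and Itga5 was at 234, 158 and 187 CPM in fibroblasts, against 76.6, 7.57 and 14.1 CPM in immune cells (log2 fold change 2.97, SE 0.57, edgeR adjusted p = 0.000407). Only the whole KPC-3403 library and the small, mostly neutrophil sum of the enriched KPC-3403 library held both classes. Without the whole KPC-3403 library 6 genes were called higher, where 5.86% of 13906 genes were, and Lama2, Lama4, Itga9, Itgb5 and Itga5 were not (adjusted p = 0.677, 0.128, 0.0569, 0.0612 and 0.175), nor were Lama1, Itga11 and Lamc3 (0.889, 0.851 and 0.737). Without the enriched KPC-3403 library 8 were called, where 10.7% of 11589 genes were, and Lama1, Lama5, Itga3 and Itga11 were not (adjusted p = 0.0604, 0.0914, 0.146 and 0.18). Lama5 and Itga3 were also not called without the whole KPC-4545 library (0.0585 and 0.118). Higher in tumour than in immune cells were, among others, Itga2, Itga3, Itga6, Itgb4, Itgb5, Itgb6, Lama3, Lama5, Lamb1, Lamb2 and Lamc1. Itga6 was at 104, 225, 179.7 and 271 CPM in tumour cells, against 0, 16.9 and 15.5 CPM in immune cells (log2 fold change 3.83, SE 0.53, edgeR adjusted p = 6.14e-06), and Lama3 had no UMI in immune cells, at least 21.4-fold higher in tumour cells. Itgb5, Itgb7 and Lamc1 lost their calls without the whole KPC-3403 library (adjusted p = 0.169, 0.118 and 0.0625), and Lamc1 also without the whole KPC-4545 library (0.075); Itga2 had an adjusted p of 0.104 without the library block. Of the 18 adaptors, 7 were higher in tumour than in immune cells, where 16.7% of all genes were, and 6 lower, where 14.8% were. Fermt1 was at 147 ± 98.3 CPM in tumour cells and 0.318 ± 0.295 CPM in immune cells (SD, n = 4 and 3). Lower in tumour cells were Zyx, at 43.2 ± 15.6 CPM against 240 ± 218 CPM in immune cells, and Tln1, at 76.0 ± 11.4 CPM against 179 ± 49.7 CPM.

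Lamb3, like Lamc1, had reads in leukocytes. It was at 0, 0.573 and 0 CPM in fibroblasts, against 91.9, 34.4 and 24.8 CPM in immune cells (log2 fold change -5.51, SE 0.86, edgeR adjusted p = 5.97e-05), and did not pass between tumour and immune cells (adjusted p = 0.172), while Lama3 had no UMI in the immune sums. Lamb3, on chromosome 1 at 193207699 to 193343878 (GENCODE, mm10), overlaps 4930570N18Rik on its own strand and Hsd11b1 and G0s2 on the other. The use of strand in the counting is not given in the sources used here. 4930570N18Rik had 0 UMIs in the 4 tumour sums, against 24.5 CPM in the immune sum of whole KPC-4545 and 16.3 CPM in that of whole KPC-3403. It also had 0 UMIs in the immune sum of enriched KPC-3403, where Lamb3 was highest, but that sum was small, at 65304 UMIs. With 3 UMIs equal to 45.9 CPM there, both values were near the floor, and 4930570N18Rik at its whole-library levels could have been missed. In B cells of the 2 whole libraries, KPC-4545 first, it was at 54.9 and 32.0 CPM, where Lamb3 was at 61.9 and 39.4 CPM, and in T cells at 10.7 and 17.1 CPM, where Lamb3 was at 23.3 and 25.7 CPM. It was below Lamb3 in NK cells, at 16.8 and 40.0 CPM, where Lamb3 was at 59.0 and 66.7 CPM. In the whole KPC-3403 library it was at 6.04 CPM in neutrophils and 0 in macrophages, where Lamb3 was at 33.2 and 13.4 CPM. Of the genes on the other strand, Hsd11b1 was at 143 CPM and G0s2 at 159 CPM in enriched KPC-4545 fibroblasts, which had no Lamb3 UMI. G0s2 was at 4660 CPM in whole KPC-3403 neutrophils. How far reads of 4930570N18Rik and Lamb3 were told apart was not tested, and leukocyte Lamb3 is given as uncertain.

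Within the immune cells of the whole libraries the integrins differed by lineage. T cells numbered 127 in whole KPC-4545 and 200 in whole KPC-3403, B cells 162 and 108, NK cells 27 and 42, dendritic cells 21 and 54, and macrophages 17 and 27. Each was compared with T cells over these 2 libraries in edgeR, and the 4 comparisons share the T cell sums. Sums of at least 20 cells were used, with 3 residual degrees of freedom, except for macrophages, where 10 cells were allowed because the whole KPC-4545 library held 17, with 5 residual degrees of freedom. Of the 4, the B, NK and dendritic cell comparisons were added after cell numbers had been seen, and no library could be left out of any.

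Macrophages were higher in 4 of 13 genes tested, against 17.3% of 4462 genes, and lower in 4, against 15.4%. Itgam, the alpha chain of the complement receptor Mac-1, was at 536 and 456 CPM in macrophages, against 1.79 and 0 CPM in T cells (log2 fold change 8.78, SE 0.59, edgeR adjusted p = 2.85e-10). Itgax, the CD11c chain, was at 119.9 and 121 CPM in macrophages, against 7.16 and 7.50 CPM in T cells (log2 fold change 3.92, SE 0.50, edgeR adjusted p = 3.24e-06). Itgb5 was at 127 and 101 CPM in macrophages and had no UMI in T cells, at least 56.4-fold higher. Itgb2 was at 487 and 443 CPM in macrophages, against 213 and 239 CPM in T cells (log2 fold change 0.99, SE 0.31, edgeR adjusted p = 0.0182). Itga4, Itgae, Itgav and Itgb7 were lower: Itgav at 91.7 and 26.8 CPM in macrophages, against 159 and 147 CPM in T cells, Itgb7 at 106 and 87.2 CPM in macrophages, against 217 and 227 CPM in T cells, and Itgae, the chain by which T cells bind E-cadherin, with no UMI in macrophages and 85 in T cells. The call for Itga4 was lost with RLE scaling, without the gene filter and in DESeq2 (adjusted p = 0.0552, 0.0844 and 0.0899), that for Itgb2 without the filter (0.08), and those for Itgae and Itgav in DESeq2 (0.447 and 0.2).

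NK cells were higher than T cells in 5 of 16 genes, against 2.1% of 6821 genes, and lower in 1, against 2.95%. Itgax was at 143 and 167 CPM in NK cells, against 7.16 and 7.50 CPM in T cells (log2 fold change 4.23, SE 0.50, edgeR adjusted p = 4.75e-09), and Itgam at 101 and 86.7 CPM in NK cells, against 1.79 and 0 CPM in T cells (log2 fold change 6.33, SE 0.76, edgeR adjusted p = 7.86e-09). Itgal was at 227 and 420.0 CPM in NK cells, against 150.3 and 125 CPM in T cells, and Itgb1 at 547 and 467 CPM in NK cells, against 204 and 254 CPM in T cells, adjusted p = 0.00961 and 0.00743. Itga2, the CD49b chain used to mark mouse NK cells, was at 50.5 and 60.0 CPM in NK cells, against 1.79 and 6.43 CPM in T cells (log2 fold change 3.44, SE 1.03, edgeR adjusted p = 0.0347). Itgav was the lower gene, at 33.7 and 86.7 CPM in NK cells, against 159 and 147 CPM in T cells. Itga2 and Itgav were not called without the library block (adjusted p = 0.089 and 0.0672). In DESeq2 the adjusted p was 0.314 for Itgal, 0.0505 for Itgb1 and 0.768 for Itgav, with none given for Itga2. At 10 cells per sum it was 0.0586 for Itgal, 0.113 for Itga2 and 0.151 for Itgav, and Itgax and Itgam kept their calls in both.

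B cells were lower than T cells in 9 of 16 genes, against 11% of 6821 genes, and higher in 1, Lamb3, against 9.69%. Itgb1 was at 21.2 and 22.2 CPM in B cells, against 204 and 254 CPM in T cells (log2 fold change -3.21, SE 0.33, edgeR adjusted p = 7.82e-12). Itgb2 was at 30.1 and 54.2 CPM in B cells, against 213 and 239 CPM in T cells (log2 fold change -2.28, SE 0.30, edgeR adjusted p = 1.68e-08). Itga1, a collagen receptor chain of tissue T cells, had no UMI in B cells and 62 in T cells, at least 13.5-fold lower, and Itgae none in B cells and 85 in T cells, at least 18.4-fold lower. Itgav, Itgal, Itgb7, Itga4 and Itgax were lower as well, so that the B cells were low in both beta chains and in their partners; Itga4 was closest, at 109.7 and 98.5 CPM in B cells, against 197 and 236 CPM in T cells (log2 fold change -0.87, SE 0.26, edgeR adjusted p = 0.0093). Lamb3 had an adjusted p of 0.0224, of 0.0512 without the gene filter, 0.0534 at 10 cells per sum and 0.413 in DESeq2, which also did not call Itgae, Itga4 and Itgax (0.151, 0.0593 and 0.122).

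Dendritic cells were higher than T cells in 2 of 16 genes, against 9.82% of 6821 genes, and lower in 6, against 6.58%. Itgax, their customary marker, was at 33.6 and 86.7 CPM in dendritic cells, against 7.16 and 7.50 CPM in T cells (log2 fold change 3.19, SE 0.55, edgeR adjusted p = 1.21e-05), and Itgae, a chain of cross-presenting dendritic cells, at 89.6 and 149 CPM in dendritic cells, against 50.1 and 61.1 CPM in T cells (log2 fold change 1.21, SE 0.40, edgeR adjusted p = 0.0326; 0.0775 without the library block, 0.124 at 10 cells per sum and 0.958 in DESeq2). The whole KPC-4545 dendritic value of Itgax rested on 3 UMIs. In both whole libraries Itgax was higher in NK cells, at 143 and 167 CPM, and in macrophages, at 119.9 and 121 CPM, than in dendritic cells. Itgav was at 33.6 and 27.7 CPM in dendritic cells, against 159 and 147 CPM in T cells (log2 fold change -2.31, SE 0.45, edgeR adjusted p = 9.69e-05). Itga1, Itgal, Itgb3, Itgb7 and Lamc1 were the others that were lower; DESeq2 called none of the 6. T cells thus had the highest Itgav of the 5 subsets in both whole libraries.

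**Figure D5:**
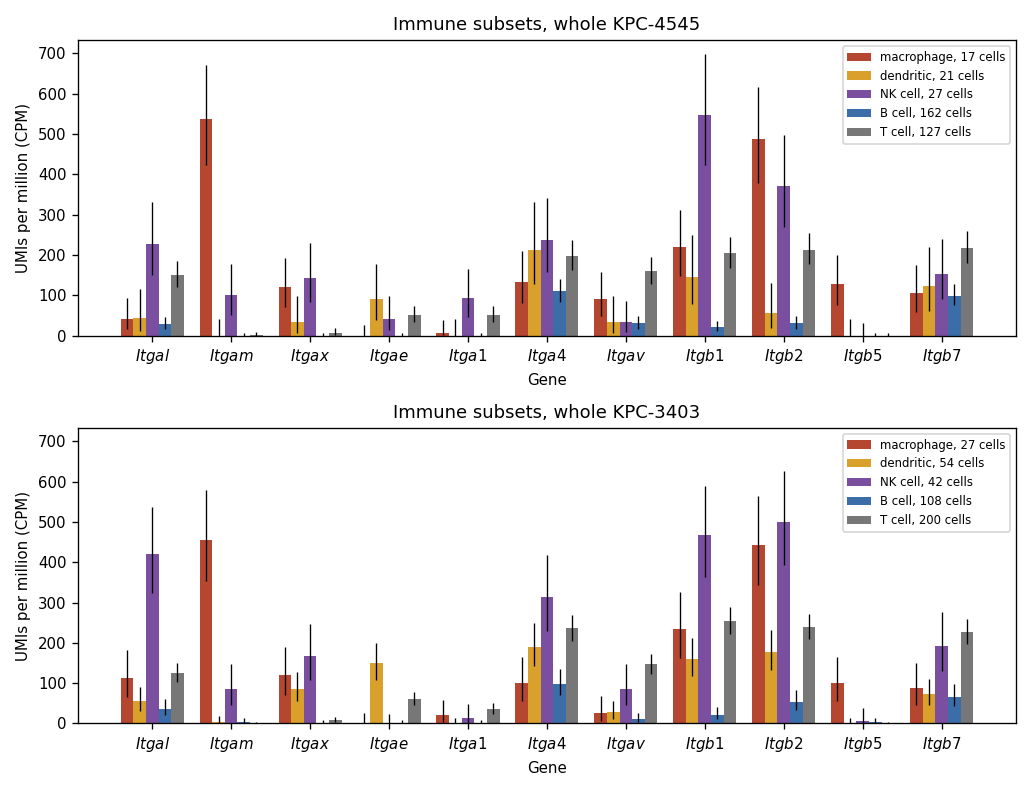
CPM of 11 integrin genes in 5 immune subsets of each whole library, as bars with exact 95% Poisson intervals, which cover counting error only. Itgam and Itgb5 are highest in macrophages, Itgb1 and Itgal in NK cells, Itgae in dendritic cells and Itgav in T cells, in both libraries, and B cells are low in Itgb1 and Itgb2.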

How the data were processed

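Single-cell 5′ libraries of the 10x Chromium kind were processed with Cell Ranger and build mm10; its version is 6.1.1 per the submitters' processing notes but 4 per the file headers. The authors deposited raw UMI counts for all barcodes, 5746733 to 51450719 UMIs per library, so empty droplets and free RNA are included. No cell annotation was used and no doublet caller was run. A class score was the marker UMIs per 10000 UMIs of the cell, divided by the class threshold. Cells were left out where the second highest score passed its threshold and exceeded the highest score divided by 4. Against a passing mesothelial score the tumour and fibroblast scores were not counted, so mesothelial cells were not cleared of cells past those thresholds. The authors' counting settings for strand and introns are not given in the sources used here.

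Counts were summed per library and class, and tested with edgeR 4.0.16 (quasi-likelihood, TMM scaling, genes kept by filterByExpr, Benjamini-Hochberg adjusted p under 0.05; R 4.3.3), with DESeq2 1.42.0 as an alternative; sums and intervals used Python 3.11.15, numpy 2.4.6, scipy 1.17.1 and pandas 2.3.3. Exact Poisson intervals and floors cover counting error only. Fold bounds against a floor pool the UMIs of all sums of a class, without the library block. The procedure was tested on simulated data. The library was a block; replicate numbers mark the cell line, and tumour deviations from the preparation means correlated at 0.551 over 7865 genes between same-line libraries. Genes were named where they passed at a mean of 10 CPM over the sums compared, up to 12 a direction, or as the 5 smallest p where none passed; those outside this rule were chosen after their values were seen. Pathway genes were named as the passing ones of highest mean CPM, up to 3 a list. Comparisons within 1 library named genes at 20 CPM and 2-fold. The values of 1 of the genes, which the counts include, are not reported here. The genes and lists were chosen with earlier results of these data known. Alternatives were scaling, gene filter, cell filters, gate thresholds, cells per sum, the block, each library left out, and barcode copies, the enriched immune sum and fibroblasts without Wt1.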

Additional observations from a re-analysis of the deposited data

Results flagged for a closer look

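Itgb3 in tumour cells differed between the preparations in opposite directions in the 2 lines. It was at 1.42 CPM in enriched KPC-4545 tumour cells, against 9.87 CPM in whole ones (0.144-fold, exact 95% counting interval 0.0669 to 0.337), and at 7.31 CPM in enriched KPC-3403 tumour cells, against 2.62 CPM in whole ones (2.79-fold, exact 95% counting interval 1.51 to 5.64). The intervals cover counting error only, and the difference between the lines was not tested.

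The 979 ungated cells of the enriched KPC-4545 library lie outside the class comparisons. Itgav was at 205 CPM in these cells, against 74.5 CPM in gated tumour cells and 131 CPM in gated fibroblasts of that library. Itgb5, the partner of Itgav, was at 258 CPM in ungated cells, against 67.1 and 162 CPM in tumour cells and fibroblasts. Itga10, a collagen receptor chain best known from cartilage, was at 28.9 CPM in ungated cells, against 5.19 CPM in tumour cells and 1.74 CPM in fibroblasts. Lama5 was at 68 CPM in ungated cells, against 41.3 CPM in tumour cells and 15.7 CPM in fibroblasts, and Itgb4 at 29.7 CPM, against 22.7 CPM in tumour cells and 0 CPM in fibroblasts. These 5 genes were above both gated classes.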

How the results depend on the processing

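Of the alternative values for the single genes reported, 1193 kept their direction and side of the threshold, 92 lost a call and 14 gained one. With each library left out in turn, fibroblasts against tumour cells gave 9 to 16 genes higher and 7 to 11 lower, fibroblasts against immune cells 6 to 19 and 8 (10 higher without the enriched immune sum), tumour against immune cells 10 to 13 and 6 to 8, KPC-4545 against KPC-3403 0 to 1 and 0 to 6, and enriched against whole 0 to 1 and 0 to 10. Without the gene filter the counts were 2 higher and 4 lower between lines, 6 lower between preparations, 0 higher in B cells and 2 lower in NK cells. DESeq2 gave 5 lower for tumour against immune cells, 1 higher and 2 lower between lines, 5 lower between preparations, 0 higher in B cells, 2 higher and 0 lower in NK cells, 1 higher and 0 lower in dendritic cells and 1 lower in macrophages. At 1000 UMIs and 500 genes per cell 2 were lower in NK cells, and with doubled gates 3. At 10 cells per sum 0 were higher in B cells, 3 higher and 0 lower in NK cells and 1 higher in dendritic cells. Without the replicate block (the library in class and subset comparisons, the line between preparations), 0 were lower in NK cells and 1 higher in dendritic cells, and Lamc1 in dendritic cells had adjusted p = 0.0894; other calls lost this way are given with their genes in the comparisons above. For fibroblasts against tumour cells, Lamb2 and Lamc1 had adjusted p = 0.0504 and 0.069 in DESeq2, and Lamb2 0.0531 without the enriched immune sum. The counts in this section stand without the share of all genes called in the same fit, which also moved between settings. For genes higher in fibroblasts than in tumour cells it was 15.3% in the main fit and 9.85% without the enriched KPC-3403 library. For genes lower in KPC-4545 than in KPC-3403 tumour cells it was 0.133% in edgeR and 2.07% in DESeq2. A change in a count is therefore no result about these genes alone. The causes were not tested. Subset comparisons without a whole library could not be fitted. The size of difference that 1 to 5 residual degrees of freedom allow to be called was not tested.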
